A study of Mus musculus with 6 samples.

Results

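The sarcomere is the contractile unit of heart muscle, and 47 genes for its filaments, its M-band, its Z-disc and the proteins bound to them were followed in mouse atria after a high-fat diet (HFD). The 47 genes came from a list of names, drawn up with earlier results of these data known, and each matched 1 of the 43432 genes of the deposited table once letter case was ignored. RNA of right and left atria was sequenced from 3 C57/Bl6J mice on the HFD and 3 on a control diet. All 6 were wild type, started their diet at 6 weeks of age and stayed on it for 10 weeks, so both groups were 16 weeks old at the end. The titles of the samples and the column names of the table name one diet for each sample, while the treatment field of the labels names the other diet in each case. The titles decided the groups here, and every direction given here would turn if the treatment field were right. The mice of a group differed only in their number.

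In the sarcomere, thick filaments of myosin pull on thin filaments of actin. Troponin and tropomyosin on the thin filament set whether myosin may bind, in response to calcium. Thick filaments are joined at the M-band by myomesins, thin filaments are anchored at the Z-disc by alpha-actinin and its partners, and titin runs from one to the other. Atrial muscle has light chains of its own, Myl4 and Myl7, where the ventricle uses Myl3 and Myl2, and several families have a slow or fast skeletal muscle isoform beside the cardiac one.

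Values are normalized counts, that is, reads per gene divided by a size factor of the mouse, and are listed in the order mouse 1, 2, 3. The reads on genes ranged from 15874251 to 28971508, with control mouse 2 the deepest, and 3 reads correspond to between 2.05 and 3.41 normalized counts. The test was limma on log2(normalized count + 1), run over 15275 genes with a mean of at least 10, and 44 of the 47 sarcomere genes were among them. Fold changes are on that log2 scale, where the added 1 makes the differences of genes with few reads look smaller. Nothing in the labels tells whether the mice of a group shared a cage, a litter or a preparation day, and the p-values measure only the spread between these samples. The tissue label was checked against marker genes: Nppa, the atrial natriuretic peptide, lay between 171702 and 333975 in every mouse, while the ventricular factors Irx4 and Hey2 lay between 9.04 and 76.3. The ventricular light chains Myl2 and Myl3, of the same marker list as these factors, lay between 1596 and 8176. Of 10 markers of skeletal muscle, Myh1, Myh2, Myh4, Myf6 and Mylpf were under the minimum level and Myod1 had no read in any mouse. Actn3 and Pvalb lay between 9.18 and 40.3. Atp2a1 was at 567, 608 and 437 in HFD and 429, 321 and 317 in the controls (limma adjusted p = 0.166). The 10 together summed to between 4577 and 7749 in HFD and between 4984 and 5639 in the controls, most of it from Myl1, a light chain at 2395 normalized counts per kb.

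Before the diets are compared, HFD mouse 3 needs to be set apart. In HFD mouse 3, 17 of the 44 tested sarcomere genes (38.6%) were at 1.5 times or more the mean of HFD mice 1 and 2, against 8.39% of all genes tested, and 8 (18.2%) were at 2 times or more, against 3.14%. The median ratio of HFD mouse 3 to that mean was 1.45 over the 44 genes and 0.991 over all genes. HFD mouse 3 lay above HFD mice 1 and 2 in 36 of the 44 genes, and the share of all genes for this was not taken. It lay above every control mouse in 22 of the 44, where 30.3% of all genes tested lay above every control in that mouse. The median over the 44 genes of the log2 value minus the control mean was -0.46 in HFD mouse 1, -0.41 in HFD mouse 2 and 0.15 in HFD mouse 3, and the same median over all genes lay between 0.0044 and 0.012 in these 3 mice. The 47 genes together took 6.80% and 7.87% of the reads on nuclear genes in HFD mice 1 and 2 and 10.9% in HFD mouse 3, and between 9.55% and 9.67% in the control mice. In the medians and summed shares, HFD mice 1 and 2 thus lay below the controls and HFD mouse 3 above them. This did not hold in every gene.

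In control mouse 2 only a few of the genes stood out. There, 5 of the 44 genes were at 1.5 times or more the mean of the other controls (11.4%), against 6.04% of all genes tested. At 2 times or more there were 4 (9.09%), against 2.43%. The median ratio was 0.987 over the 44 genes and 0.993 over all genes, so by the median the 44 as a set did not stand out in that mouse. Myl2 and Myl3, the ventricular light chains, were at 8176 and 5513 in it, against 2957 and 2533 in control mouse 1 and 2290 and 1923 in control mouse 3. Acta1, skeletal actin, was at 801 against 311 and 320, and Ttn, titin, at 148740 against 82344 and 89649. Myh7b, a slow myosin heavy chain, was at 156 in that mouse and at 66.1 and 62.3 in the other controls. The summed ventricular markers, Myl2 and Myl3 among them, were at 13770 in control mouse 2 and between 4262 and 6415 in the other 5 mice, while Irx4 was at 32.2 in it against 9.04 to 20.2 and Hey2 at 48.6 against 38.8 to 76.3. The part of ventricular tissue in this was not tested. These genes were named after their values were seen.

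**Figure D1:**
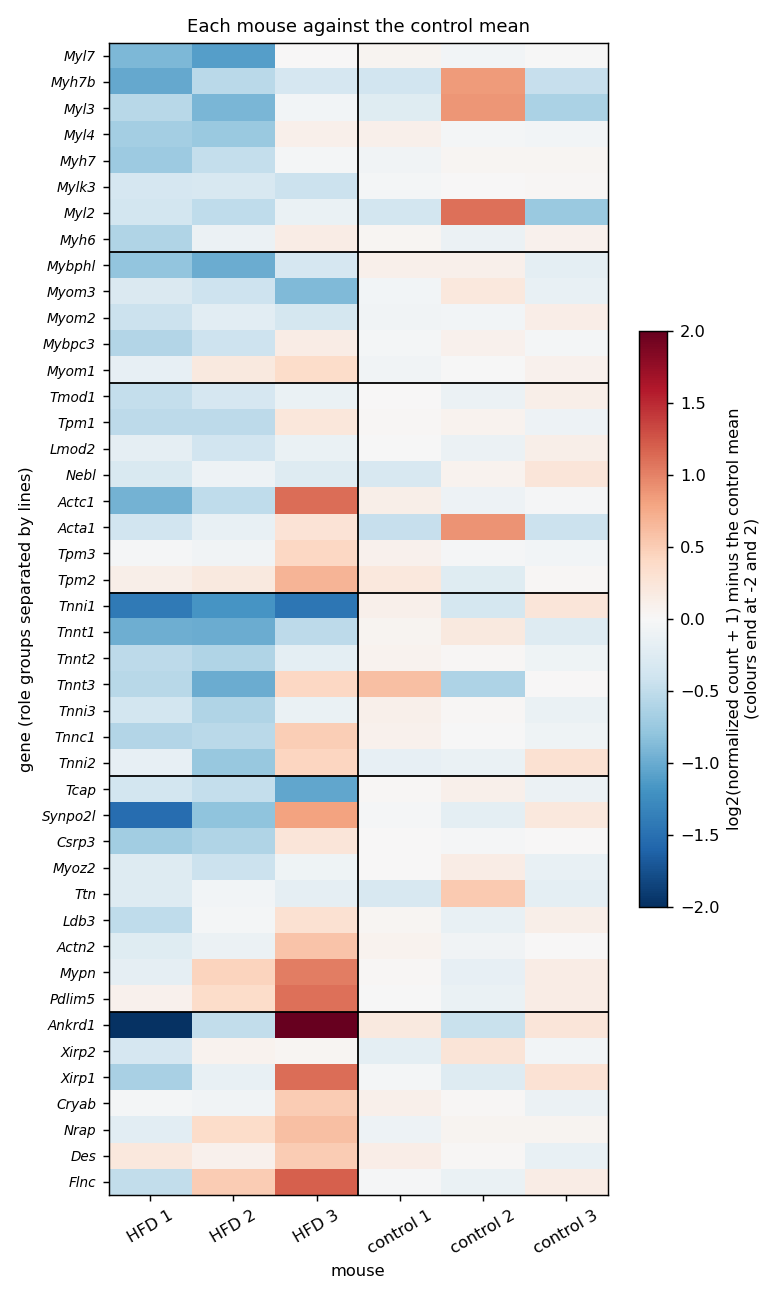
Heat map of the 44 tested sarcomere genes (rows, grouped by role) in the 6 mice (columns), as log2(normalized count + 1) minus the mean of the 3 control mice. The median column value is -0.46 in HFD mouse 1, -0.41 in HFD mouse 2 and 0.15 in HFD mouse 3, and the darkest red cell is Ankrd1 in HFD mouse 3.

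With all 6 mice, none of the 44 genes passed the adjusted threshold of 0.05 in limma, where 0.746% of all genes tested passed it (114 genes, 40 lower and 74 higher in HFD). The smallest adjusted p of the 44 was 0.0827, for Tnni1. At an unadjusted p under 0.05 there were 13 of the 44, with 12 lower and 1 higher in HFD, where 5.55% of all genes tested were lower at that level and 6.66% were higher. In 11 of the 44 the 3 HFD mice all lay below the 3 control mice, against 9.17% of all genes tested, and in 0 they all lay above, against 8.86%. The fitted log2 fold change was below 0 in 33 of the 44 genes (75%), against 49.2% of all genes tested, and its median was -0.25 against 0.00 over all genes. By DESeq2 on the recovered reads, 5 of the 44 passed the adjusted threshold, all lower in HFD (Mylk3, Mybphl, Tnnt2, Tnni1 and Tcap), where 1.03% of all genes passed it lower; by edgeR, 0 passed with TMM scaling (0.57% of all genes) and 0 with RLE scaling (0.596%). In whole atria, fewer muscle cells and less of these RNAs per muscle cell cannot be told apart.

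**Figure D2:**
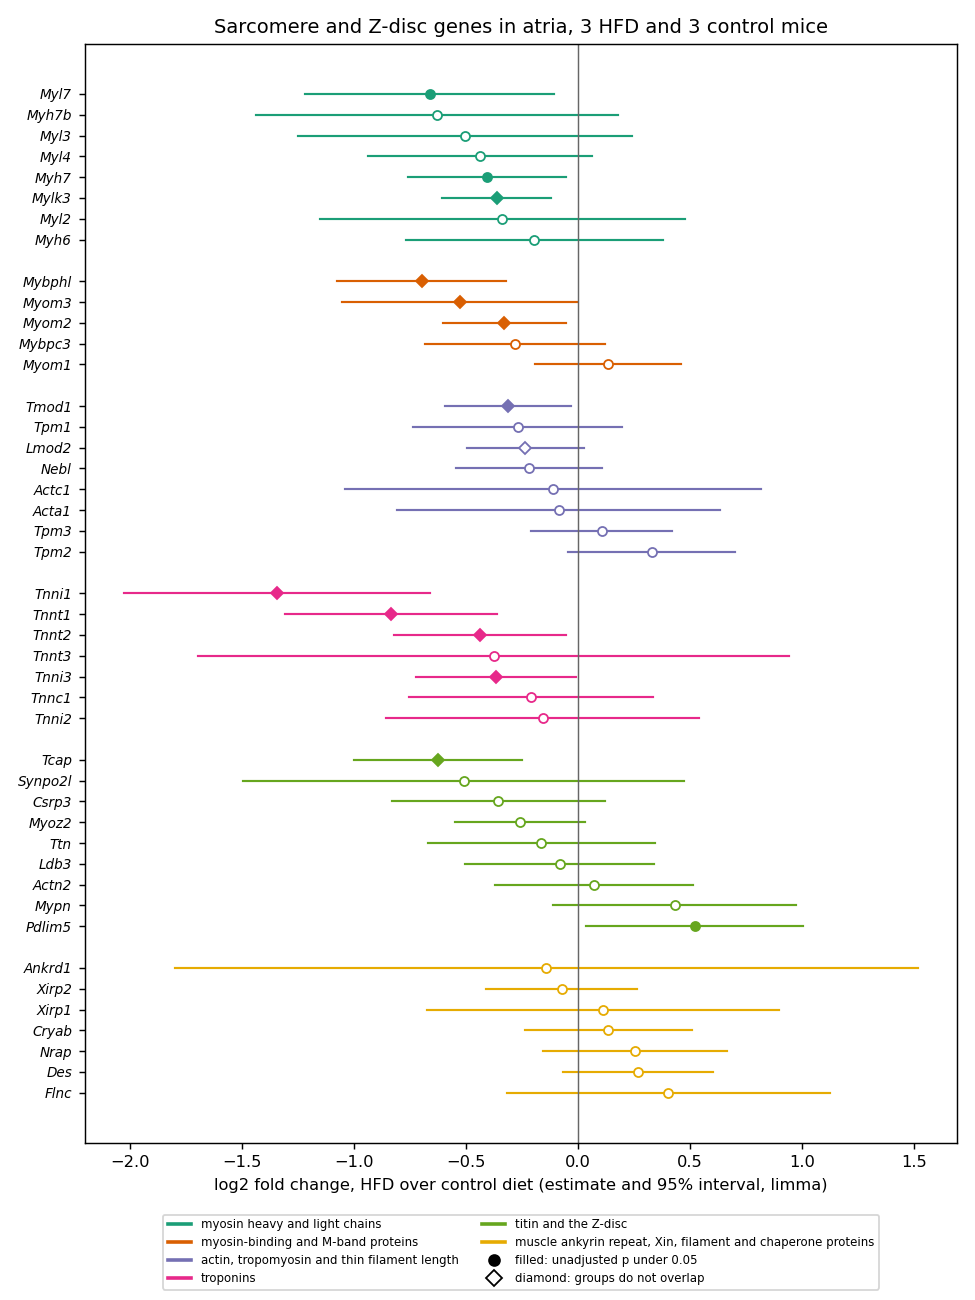
Log2 fold change of HFD over control diet (x axis) with its 95% interval from limma for each of the 44 tested sarcomere genes (y axis), coloured by role; filled symbols have an unadjusted p under 0.05 and diamonds mark the genes whose 2 groups of 3 mice do not overlap. All 8 myosin genes and all 7 tested troponins lie left of 0, and 5 of the 7 genes of the last group lie right of it.

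Leaving out HFD mouse 3 changed these counts. That mouse was set apart on the values of these same genes, so the adjusted p-values without it, here and below, are only description. Of the 44 genes, 8 then passed the adjusted threshold in limma, all lower in HFD, where 0.811% of all genes passed it lower (124 of 15297). They were Myh7, Myl4, Myl7, Mybphl, Tnnt1, Tnnc1, Csrp3 and Synpo2l. At an unadjusted p under 0.05 there were 22, all lower, where the share of all genes was 6.84%. HFD mice 1 and 2 both lay below every control mouse in 25 of the 44 genes, against 16.4% of all genes tested, and both above in 0, against 15.7%. The median log2 fold change moved from -0.25 to -0.40. Of all genes, 49.5% were below 0 in that fit, and 37 of the 44. Leaving out any other mouse gave 0 of the 44 past the adjusted threshold, where the share of all genes was 0.341% without HFD mouse 1, 0.157% without HFD mouse 2, and 0.327%, 0.0917% and 0.124% without control mouse 1, 2 and 3.

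The troponins are the calcium switch of the thin filament, and all 7 that were tested had a log2 fold change below 0, 4 of them without overlap between the groups. Tnni1, the slow skeletal troponin I that the heart uses before birth, had 23.1, 27.5 and 22.7 normalized counts in the HFD mice and 68.3, 49.3 and 75.4 in the controls. HFD mouse 3 was here the lowest of the 6. The log2 fold change was -1.34 ± 0.31 (SE, n = 3 and 3; 95% interval -2.03 to -0.66; limma adjusted p = 0.0827), the lowest of all 44 genes. Tnnt1, the slow skeletal troponin T, was at 85.4, 84.6 and 118 against 177, 195 and 142. Its log2 fold change was -0.83 ± 0.21 (limma adjusted p = 0.114). Both of these low-level isoforms lay below the controls in each HFD mouse.

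The adult cardiac troponins are far more abundant. Tnnt2, cardiac troponin T, was at 79450, 75599 and 99709 in HFD and 119447, 115528 and 107918 in the controls, a log2 fold change of -0.44 ± 0.17 (limma adjusted p = 0.344). Tnni3, cardiac troponin I and the highest troponin per kb of exon (23708 normalized counts per kb), was at 42470, 36304 and 49850 against 58954, 55807 and 50073. The gap between HFD mouse 3 and control mouse 3 was small in Tnni3, and its log2 fold change was -0.37 ± 0.16 (limma adjusted p = 0.393). Tnnc1, the cardiac and slow troponin C, showed the split between the HFD mice: it was at 8540 and 8833 in mice 1 and 2 and at 18082 in mouse 3, with the controls at 13641, 12750 and 12133. Without HFD mouse 3 its log2 fold change went from -0.21 to -0.56 (limma adjusted p = 0.0293). The fast skeletal isoforms Tnni2 and Tnnt3 had overlapping groups with means of 72.2 and 77.1, and of 12.5 and 16.1, in HFD and control. Fast troponin C, Tnnc2, had 3 reads, all in HFD mouse 1, and was not tested.

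Troponin genes lie in pairs of a troponin I and a troponin T gene, and in the files' build, GRCm38, 3 such pairs are among the 47 genes. Tnni1 (chr1:135779434-135810989) and Tnnt2 (chr1:135836354-135852260) are 25364 bases apart, and both lay below the controls without overlap. Tnnt1 (chr7:4504570-4516382) and Tnni3 (chr7:4518305-4524229) are 1922 bases apart, and both did too. Tnni2 (chr7:142441808-142444410) and Tnnt3 (chr7:142498836-142516009), 54425 bases apart, both overlapped. Each of the first 2 pairs joins a slow skeletal gene and a cardiac gene whose levels differ by orders of magnitude. Tnni3 shares 86 exonic bases on its own strand with Dnaaf3, whose reads may be counted in either.

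Among the myosin genes, all 8 had a log2 fold change below 0 and 1 had groups that did not overlap. Myl7, the atrial regulatory light chain, had the highest level of all 47 genes per kb (82440). It was at 31186 and 27168 in HFD mice 1 and 2 and at 58765 in HFD mouse 3, with 60190, 56346 and 58183 in the controls. HFD mouse 3 thus lay within the control range, and HFD mice 1 and 2 near 50% of the control mean. The log2 fold change was -0.66 ± 0.25 (limma adjusted p = 0.317) with all mice and near -1, with an SE of 0.13 (limma adjusted p = 0.00455), without HFD mouse 3. Myl4, the atrial essential light chain, had the same layout, with 57076, 54353 and 98076 in HFD and 97410, 88721 and 87506 in the controls. Its log2 fold change was -0.44 ± 0.23 (limma adjusted p = 0.484), and -0.71 ± 0.14 (limma adjusted p = 0.0298) without HFD mouse 3.

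Mylk3, the cardiac kinase that phosphorylates the regulatory light chain, was the myosin-group gene with the least spread. It was at 10999, 11229 and 10312 in HFD and 13559, 14105 and 14205 in the controls. The log2 fold change was -0.36 ± 0.11 (limma adjusted p = 0.179) and changed to -0.33 without HFD mouse 3. Myh7, the slow or beta heavy chain, was at 2183, 2594 and 3503 against 3418, 3677 and 3697, so that HFD mouse 3 lay above the lowest control; its log2 fold change was -0.41 ± 0.16 (limma adjusted p = 0.334). Myh6, the alpha heavy chain of the adult mouse heart, overlapped, with 274106, 383881 and 461411 in HFD and 427978, 384670 and 442527 in the controls. Of the 50-base windows in the exons of Myh6 and Myh7, 20.2% and 15.6% also occur in another gene, chiefly the other of the pair, and Myh7 shares 1149 exonic bases with antisense genes such as Mhrt. Reads there may be lost or misassigned.

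Myosin-binding and M-band genes come next. Mybphl, a myosin-binding protein found mainly in atria, was at 6780, 5888 and 9284 in HFD and 12450, 12543 and 10159 in the controls. Its log2 fold change was -0.70 ± 0.17 (95% interval -1.08 to -0.32, limma adjusted p = 0.0988). The 3 atrial isoforms of the list, Mybphl, Myl4 and Myl7, were among the 8 genes past the adjusted threshold once HFD mouse 3 was left out. Myom2, the M-band protein M-protein, was at 13283, 15373 and 14066 against 16975, 17118 and 19616, with a log2 fold change of -0.33 ± 0.12 (limma adjusted p = 0.308). Myom3, a minor myomesin, was at 86.4, 79.5 and 56.8 against 101.9, 123 and 95.1. HFD mouse 3 lay between the other HFD mice in Myom2 and was the lowest of the 6 in Myom3. Myom1, the main myomesin, overlapped, at 11671, 14901 and 16912 against 12470, 12933 and 13813. Mybpc3, cardiac myosin-binding protein C, had means of 21074 and 25036.

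**Figure D3:**
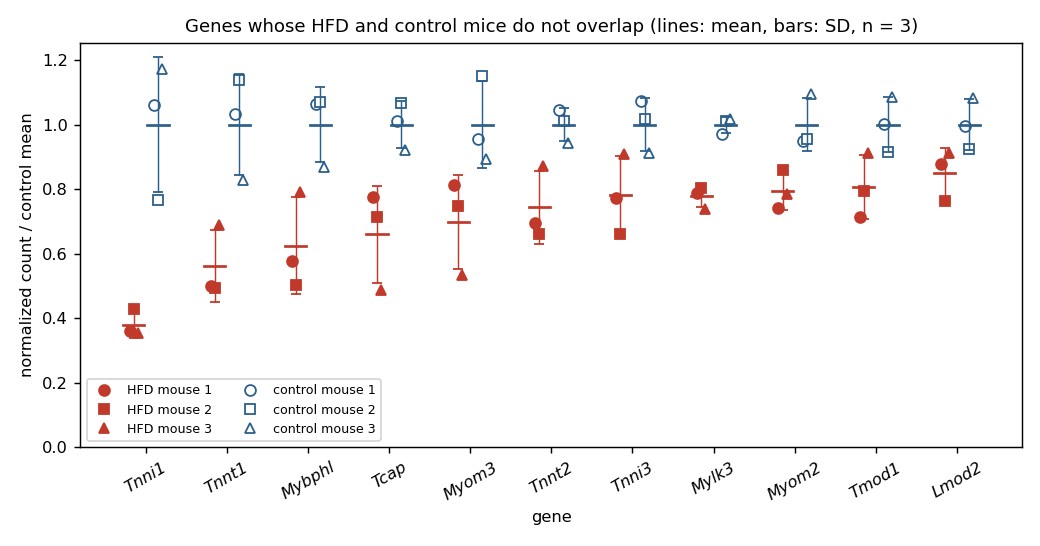
Normalized counts divided by the control mean (y axis, starting at 0) for the 11 sarcomere genes whose groups do not overlap (x axis), with 1 symbol a mouse, lines for the means and bars for the SD of 3 mice. The HFD symbols lie below all control symbols of the same gene, with Tnni1 lowest. HFD mouse 3 is the lowest symbol in Tnni1, Tcap, Myom3 and Mylk3. It is the highest HFD symbol in Tnnt1, Mybphl, Tnnt2, Tnni3, Lmod2 and Tmod1 and lies between the other HFD mice in Myom2.

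On the thin filament, the genes that cap or lengthen its pointed end lay lower without overlap, and actin itself did not. Tmod1, the tropomodulin that caps the pointed end, was at 5038, 5599 and 6442 in HFD and 7065, 6459 and 7653 in the controls. The margin between HFD mouse 3 and control mouse 2 was 6442 against 6459, and the log2 fold change was -0.31 ± 0.13 (limma adjusted p = 0.351). Its exons share 1287 bases with the antisense gene Tstd2. Lmod2, the leiomodin that lengthens thin filaments, was at 5762, 5002 and 5981 against 6530, 6077 and 7099, a log2 fold change of -0.24 ± 0.12 (limma adjusted p = 0.464), and was the gene without overlap that missed an unadjusted p of 0.05. Actc1, cardiac actin, was at 48472, 65333 and 201539 against 100697, 86944 and 91994. Its arithmetic mean was higher in HFD (105115 ± 83930 against 93212 ± 6957, SD), while its log2 fold change was -0.11 ± 0.42 and turned positive under DESeq2, edgeR and quantile normalization. Tpm1, the main cardiac tropomyosin, was at 45171, 45030 and 75911 against 66034, 68243 and 60164, and Tpm2, beta-tropomyosin, at 4999, 5277 and 7369 against 5343, 3898 and 4710. Tpm3 shares 23.2% of its 50-base windows with other genes, and its means of 1551 and 1427 are uncertain.

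At the Z-disc, 6 of 9 tested genes had a log2 fold change below 0. Tcap, telethonin, which caps the ends of 2 titin molecules at the Z-disc, was at 9955, 9180 and 6264 in HFD and 12989, 13708 and 11821 in the controls. The log2 fold change was -0.63 ± 0.17 (limma adjusted p = 0.134), and HFD mouse 3 was the lowest of the 6. Of the 44 genes, 7 were at or below the mean of HFD mice 1 and 2 in HFD mouse 3 (Tcap, Tnni1, Mylk3, Myom2, Myom3, Nebl and Ttn). All 7 had a log2 fold change below 0, but HFD mouse 3 itself enters that fold change. Of all 44 genes, 33 were below 0. Pdlim5, a PDZ and LIM domain adaptor at the Z-disc, was the gene that was higher at an unadjusted p under 0.05. It was at 7316, 8917 and 14740 against 6827, 6279 and 7604, so HFD mouse 1 lay within the control range. Its log2 fold change was 0.52 ± 0.22 (limma adjusted p = 0.371), and 0.23 ± 0.13 (limma adjusted p = 0.46) without HFD mouse 3. Csrp3, the muscle LIM protein, was at 8998, 9590 and 17271 against 14739, 14369 and 14757, with a log2 fold change of -0.65 (limma adjusted p = 0.0131) without HFD mouse 3 and -0.36 with it. Myoz1, a calsarcin of fast muscle, was under the minimum level.

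The last group, muscle ankyrin repeat, Xin, filament and chaperone genes, had 5 of 7 log2 fold changes above 0 and no gene at an unadjusted p under 0.05. Ankrd1, the cardiac ankyrin repeat protein, which shuttles between the titin spring and the nucleus and is known for its response to load, was the gene with the widest spread. It was at 5935, 16620 and 95171 in the HFD mice and 26687, 17071 and 27665 in the controls, so that the HFD group held both the lowest and the highest mouse. HFD mouse 3 was at 8.44 times the mean of HFD mice 1 and 2. The log2 fold change of -0.14 ± 0.75 (limma adjusted p = 0.966) has a 95% interval of -1.80 to 1.52, and its sign turned under DESeq2 and edgeR. Xirp1, an actin-binding Xin protein, was at 2460, 3456 and 8354 against 3746, 3210 and 4696, and Flnc, filamin C, at 3968, 7960 and 12844 against 5517, 5125 and 6224. Cryab, the small heat shock protein that guards desmin and titin and the highest of the group per kb (14284), was at 19347, 19033 and 28456 against 21391, 20171 and 18362. Des, desmin, had means of 26285 ± 4181 and 21725 ± 2168 (SD). Ankrd2, the skeletal relative of Ankrd1, was under the minimum level, at 3.01, 2.04 and 6.81 in HFD and 0, 0 and 1.09 in the controls. Its HFD values of mice 1 and 2 rest on at most 3 reads.

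**Figure D4:**
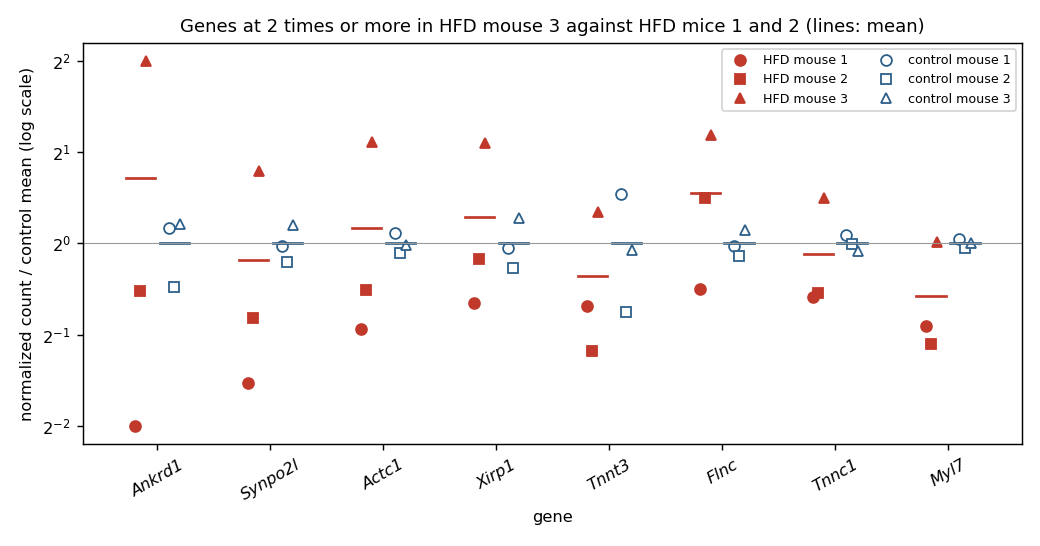
Normalized counts divided by the control mean (y axis, log scale) for the 8 sarcomere genes at 2 times or more in HFD mouse 3 against the mean of HFD mice 1 and 2 (x axis), with 1 symbol a mouse and lines for the means. Ankrd1 has the widest gap, 8.44 times, and in each gene HFD mice 1 and 2 lie below HFD mouse 3.

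The 8 genes at 2 times or more in HFD mouse 3 were Ankrd1, Synpo2l, Actc1, Xirp1, Tnnt3, Flnc, Tnnc1 and Myl7, named here after their values were seen. Synpo2l, an actin-associated Z-disc protein, was at 1848, 3033 and 9284 in HFD and 5258, 4664 and 6153 in the controls, and its log2 fold change went from -0.51 ± 0.44 to -1.17 ± 0.19 (limma adjusted p = 0.0117) without HFD mouse 3. In 10 of the 44 genes HFD mice 1 and 2 lay below every control mouse and HFD mouse 3 above every one of them (Actc1, Actn2, Ankrd1, Csrp3, Mybpc3, Myh6, Myl4, Synpo2l, Tnnc1 and Tpm1), against 3.35% of all genes tested. The atrial marker Nppa did the same, at 171702, 179008 and 333975 against 294185, 305627 and 263703. The atrial markers Sln, Dkk3 and Bmp10, also outside the sarcomere list, did not. HFD mouse 3 lay below every control in Sln (19799) and Dkk3 (14156). In Bmp10, HFD mouse 2 lay above every control (5575). The share of reads on mitochondrial genes was 24.3%, 22.5% and 19.5% in HFD mice 1 to 3 and 23.8%, 30.7% and 24.4% in control mice 1 to 3. Its part in the split was not tested.

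The promoters of 4 of the 8 genes at 2 times or more in HFD mouse 3 are shown, chosen after their values were seen. Each runs from 250 bases before to 50 bases after the start that RefSeq annotates in GRCm38.p6, 5′ to 3′ on the strand of the gene. Capitals mark matches on either strand to the CArG box (the site of serum response factor), the MEF2 site, CATTCC (a core of TEAD sites) and AGATAA (a core of GATA sites).
Ankrd1 (chr19:36119795-36120094, minus strand): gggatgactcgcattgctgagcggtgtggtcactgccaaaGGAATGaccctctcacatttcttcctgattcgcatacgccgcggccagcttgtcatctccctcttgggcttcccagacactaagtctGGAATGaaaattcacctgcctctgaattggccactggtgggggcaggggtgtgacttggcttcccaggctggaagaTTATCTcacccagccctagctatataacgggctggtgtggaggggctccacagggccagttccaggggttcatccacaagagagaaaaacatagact
Actc1 (chr2:114052826-114053125, minus strand): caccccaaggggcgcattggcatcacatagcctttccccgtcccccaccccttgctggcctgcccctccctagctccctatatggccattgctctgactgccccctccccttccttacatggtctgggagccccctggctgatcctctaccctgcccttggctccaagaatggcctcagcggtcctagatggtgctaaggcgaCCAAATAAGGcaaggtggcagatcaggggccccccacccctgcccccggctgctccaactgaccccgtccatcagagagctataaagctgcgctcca
Synpo2l (chr14:20668305-20668604, minus strand): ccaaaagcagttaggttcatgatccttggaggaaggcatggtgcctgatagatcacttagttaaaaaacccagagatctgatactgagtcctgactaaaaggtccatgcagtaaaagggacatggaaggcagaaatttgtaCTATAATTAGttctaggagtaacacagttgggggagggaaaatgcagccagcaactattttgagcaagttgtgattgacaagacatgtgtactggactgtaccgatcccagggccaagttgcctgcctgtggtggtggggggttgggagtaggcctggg
Myl7 (chr11:5898733-5899032, minus strand): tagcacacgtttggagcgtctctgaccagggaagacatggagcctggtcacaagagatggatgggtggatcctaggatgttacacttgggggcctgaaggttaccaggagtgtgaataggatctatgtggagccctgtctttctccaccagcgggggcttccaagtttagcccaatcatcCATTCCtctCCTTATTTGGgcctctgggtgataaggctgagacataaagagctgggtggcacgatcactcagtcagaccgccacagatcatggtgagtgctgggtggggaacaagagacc
Actc1 and Myl7 each hold a CArG box, 47 and 61 bases before the start, Synpo2l holds a MEF2 site, and Ankrd1 holds 2 copies of CATTCC on the other strand and AGATAA on the other strand. Flnc and Tnnc1, also high in HFD mouse 3 and not shown, hold CATTCC and neither a CArG box nor a MEF2 site.

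Promoters were found for 40 of the 47 genes and are not shown for Cryab, Myom2, Myoz1, Tcap, Tnni2, Tnnt3 and Xirp1. A CArG box was matched in 6 of the 40 (15%: Acta1, Actc1, Ldb3, Myl3, Myl7 and Myom1), against 1.63% of 32851 promoters of the same length. The MEF2 site was matched in 6 (15%: Mybpc3, Myom3, Myoz2, Synpo2l, Ttn and Xirp2), against 3.19%. CATTCC was in 13 (32.5%) against 14.7%, AGATAA in 7 (17.5%) against 11.2% and the E-box CANNTG in 36 (90%) against 72.3%. For comparison, the promoters of 2 genes whose HFD mice all lay below the controls follow, with capitals as above.
Mybphl (chr3:108364661-108364960, plus strand): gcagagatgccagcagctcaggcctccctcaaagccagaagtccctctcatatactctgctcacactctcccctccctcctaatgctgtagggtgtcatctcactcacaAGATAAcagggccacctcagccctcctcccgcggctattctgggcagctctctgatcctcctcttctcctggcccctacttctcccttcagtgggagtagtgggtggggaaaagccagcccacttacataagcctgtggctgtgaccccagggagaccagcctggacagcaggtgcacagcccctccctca
Tnnt1 (chr7:4515926-4516225, minus strand): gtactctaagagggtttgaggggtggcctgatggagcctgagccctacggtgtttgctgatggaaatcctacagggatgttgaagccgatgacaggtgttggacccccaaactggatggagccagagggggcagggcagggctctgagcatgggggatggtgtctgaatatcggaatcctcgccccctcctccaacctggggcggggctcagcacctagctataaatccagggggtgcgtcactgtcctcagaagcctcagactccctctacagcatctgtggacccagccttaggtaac
Mybphl holds AGATAA 141 bases before the start, and Tnnt1 holds none of the 4 marked motifs in this window. A match is a description of the letters and not evidence of binding. Of the 11 genes without overlap, Tnnt2 and Tmod1 hold CATTCC, Myom3 holds a MEF2 site, and Mylk3, Mybphl and Tnnt2 hold AGATAA. None of the 9 with a promoter holds a CArG box, but with 15% of the 40 holding one, 9 are too few to show a difference. Of these, the starts used for Tnni1, Mylk3, Tnni3, Tnnt1 and Tmod1 lie 19987, 5304, 1701, 407 and 287 bases from the start of the gene in the deposited table. Among the other promoters, those of Myl2, Actc1 (shown above), Nebl and Myh6 start 7762, 673, 330 and 320 bases from it.

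The balance within isoform pairs was taken as the share of one gene in the sum of the pair, per kb of exon, a ratio within a mouse that its size factor does not affect. Of 12 pairs, 11 had more than 3 reads of the first gene in at least 1 mouse, and in 6 the groups did not overlap, 4 with a lower and 2 with a higher share in HFD. One of the 2 higher, Ankrd2 with Ankrd1, rests on at most 6 reads of Ankrd2 in a mouse and is too shallow to be read as a difference. With 3 mice against 3 the smallest p of a two-sided exact permutation test is 0.1, and all 6 reached it, with an adjusted p of 0.183 over the 11 pairs. The share of Tpm2 in Tpm1 and Tpm2 was 19.8%, 20.7% and 17.8% in HFD and 15.3%, 11.3% and 14.9% in the controls, and HFD mouse 3 was nearest to the controls. The share of Myom2 in Myom1 and Myom2 was 57.3%, 54.9% and 49.6% against 61.7%, 61.0% and 62.7%. Both differences kept their sign whichever mouse was left out, between 4.36 and 6.44 percentage points for Tpm2 and between -9.52 and -5.63 for Myom2.

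The other 4 shares were small. Tnni1 made up 0.0312%, 0.0434% and 0.0261% of the troponin I sum with Tnni3 in HFD and 0.0663%, 0.0506% and 0.0862% in the controls. Tnnt1 made up 0.377%, 0.392% and 0.415% of the sum with Tnnt2, against 0.518%, 0.590% and 0.461%. In both pairs the cardiac isoform had a log2 fold change below 0, and that of the slow skeletal isoform was further below 0. Myh7 made up 0.618%, 0.525% and 0.589% of the sum with Myh6, against 0.620%, 0.741% and 0.648%, where HFD mouse 1 and control mouse 1 were almost level. Ankrd2 made up at most 0.129% of the sum with Ankrd1, on the few reads given above. The pairs of light chains, Myl2 with Myl7 and Myl3 with Myl4, overlapped, as did Acta1 with Actc1, Xirp1 with Xirp2 and Myoz1 with Myoz2.

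**Figure D5:**
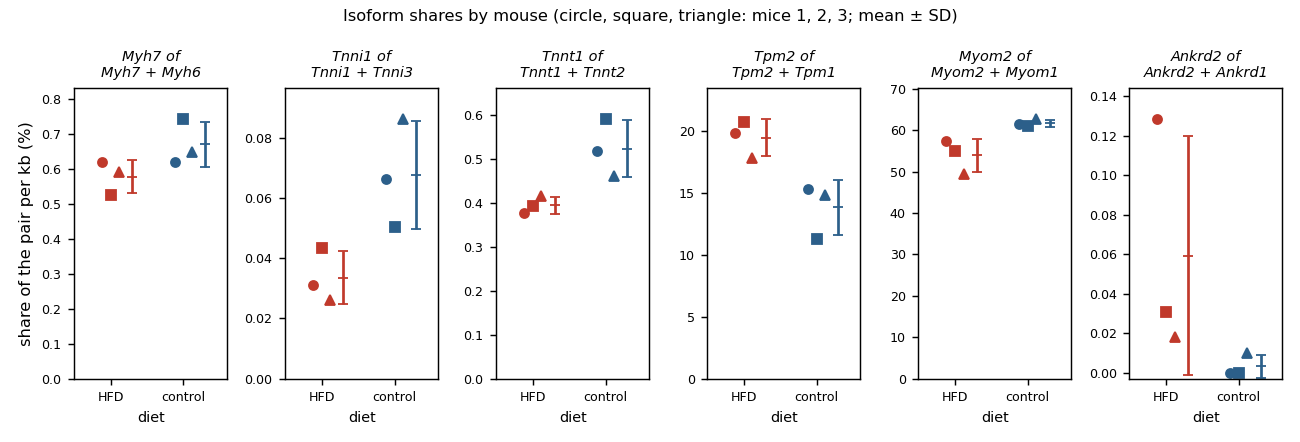
Share of the first gene in the sum of an isoform pair, per kb of exon, in percent (y axes, each with its own scale), for the 6 pairs whose HFD and control mice do not overlap; symbols are mice and bars the mean ± SD of 3. The shares of Myh7, Tnni1, Tnnt1 and Myom2 are lower and those of Tpm2 and Ankrd2 higher in HFD, that of Ankrd2 on at most 6 reads a mouse.

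Other genes of the sarcomere and its links to the membrane, 50 tested of 55 found, were 23 below and 27 above 0, with a median log2 fold change of 0.07. At an unadjusted p under 0.05 there were 4 lower and 8 higher. For this list and those below, the shares of all genes tested were 49.2% below 0 and, at that level, 5.55% lower and 6.66% higher. Of these 50, 1 passed the adjusted threshold, which 0.746% of all genes tested passed. Actn1, the non-muscle alpha-actinin, was at 957, 919 and 947 in HFD and 659, 521 and 494 in the controls, with a log2 fold change of 0.76 ± 0.13 (limma adjusted p = 0.0358). The adjusted p was 0.095 and 0.107 without HFD mouse 1 and 2 and 0.163 and 0.14 without control mouse 2 and 3, where the call was lost, and 0.178 with no mean-variance trend in limma. Its sarcomeric relative among the 47, Actn2, was at 21354, 23441 and 37836 against 26607, 24053 and 25473. Of 16 tested sarcomere chaperones and assembly factors 5 were below and 11 above 0, with 2 at an unadjusted p under 0.05, both higher, and of 17 tested muscle transcription factors 9 were below and 8 above, with 1 at that level, higher; none of either list passed the adjusted threshold in limma or in any alternative.

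Some markers of other cells differed between the diets. The summed level of 3 brown adipocyte markers lay between 444 and 1139 in HFD and between 145 and 269.8 in the controls. Of the 2 tested, Ucp1 was at 706, 173 and 745 against 86.2, 5.48 and 15.3 and Cidea at 419, 268 and 391 against 183, 149 and 130.1, and both passed the threshold (limma adjusted p = 0.0446 and 0.031), while Elovl3 was at 14.1 or less in every mouse. Ucp1 lost the call without HFD mouse 1 or 2 or control mouse 2 or 3 (limma adjusted p = 0.113, 0.052, 0.123 and 0.17), and Cidea without HFD mouse 1 or any control mouse (limma adjusted p = 0.0924, 0.0631, 0.123 and 0.139). With no mean-variance trend limma gave adjusted p = 0.235 for Ucp1 and 0.177 for Cidea, and edgeR with TMM gave 0.0618 for Ucp1. The summed level of 5 white adipocyte markers lay between 5834 and 10562 in HFD and 3200 and 5462 in the controls, and this gap came from Fabp4, at 8820, 6273 and 5075 against 4228, 4169 and 2949 (limma adjusted p = 0.108). Without Fabp4 the sums overlapped, at 436 to 1742 and 251.4 to 1234. The 4 endothelial markers summed to between 11973 and 13633 and between 9821 and 10700, a gap that came from Pecam1, at 6153, 6259 and 5340 against 4106, 3842 and 4019 (limma adjusted p = 0.0504). Without Pecam1 those sums overlapped too, at 6371 to 7374 and 5715 to 6681. The 6 atrial myocyte markers, Myl4 and Myl7 among them, summed to 301834 and 302238 in HFD mice 1 and 2, 532731 in HFD mouse 3 and between 461241 and 499600 in the controls. Most of each sum was Nppa. Without it the sums were 130132, 123231 and 198756 against 205415, 193323 and 197538. Sln, at 23714, 19693 and 19799 against 26121, 27600 and 25151, lay below every control in all 3 HFD mice. So did Dkk3, at 16770, 16442 and 14156 against 19482, 19281 and 21130. Bmp10 overlapped, at 1386, 5575 and 7960 against 2211, 1375 and 5568. The part of cell makeup in the lower sarcomere values was not tested.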

How the data were processed

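Atria of 3 mice on the HFD and 3 on a control diet were sequenced. Per the labels and the study's methods, the authors made directional libraries, sequenced them and aligned the reads to GRCm38 by STAR; reads mapped to 1 place were given to genes of Ensembl 79 by Salmon, and size factors and the test came from DESeq2; tool versions are not given in the sources used here. The deposited signal of a gene in a sample is a read count divided by the sample's size factor. The authors also deposited 7 columns of their own comparison, which hold a mean, a log2 fold change with its error, p-values and 2 scores, and these were not used. One row without a gene name held only 0.

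Every deposited value was a whole multiple of the sample's smallest value (100% within 0.01), so reads were recovered. Because the unit is a normalized one, limma 3.58.1 in R 4.3.3 (lmFit, eBayes with a variance trend) was run on log2(value + 1) for the 15275 genes with a mean of at least 10, adjusted by Benjamini-Hochberg over all of them, with a threshold of 0.05. edgeR 4.0.16 and DESeq2 1.42.0 were run on recovered reads as alternatives, beside other scalings, filters and pseudocounts and each mouse left out. Isoform shares were compared by an exact permutation test. Levels between genes are per kb of exon in GENCODE vM21. Strand use in the counting is not stated, so antisense overlaps are uncertain. Counting intervals and floors cover counting error only. The 47 genes and all lists were chosen with earlier results of these data known. Values in every mouse are given for genes with an unadjusted p under 0.05 or groups that do not overlap, for isoform pairs that differ without overlap, and for the highest gene per kb of each role.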

Additional observations from a re-analysis of the deposited data

How the results depend on the processing

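The 47 genes gave 0 past the adjusted threshold under quantile normalization, TMM factors, mitochondrial genes left out, no variance trend, no filter, a minimum of 10 in every sample, a pseudocount of 0.1, both edgeR fits and a fold criterion, and 5 under DESeq2. Over all genes, DESeq2 called 443 against 114, the fit without a variance trend 0, and the criterion of an absolute log2 fold change above 1 left 69. At an unadjusted p under 0.05 the fit without a trend gave 8 of the 44 tested, and the share of all genes there was not taken. Of 54 other sarcomere genes, DESeq2 called 5, with 2 lower and 3 higher in HFD. Over all genes it called 165 lower (1.03% of 16054) and 278 higher. The fit without a trend called 0 of 50 other sarcomere genes. The 11 genes without overlap kept their sign under every alternative run. The sign turned for Actc1 under DESeq2 (0.17), edgeR with RLE (0.17), edgeR with TMM (0.17) and quantile normalization (0.080), for Ankrd1 under DESeq2 (0.72), edgeR with RLE (0.72) and edgeR with TMM (0.72), and for Ttn under quantile normalization (0.018).

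With 1 mouse left out, the share of all genes at an unadjusted p under 0.05 was taken only without HFD mouse 3 (6.84% lower). Leaving out each mouse gave 14 to 342 genes in all. They held 0 to 8 of the 44 tested and 0 to 6 of the other sarcomere genes. At an unadjusted p under 0.05 there were 7 to 22 of the 44. The highest of each count came without HFD mouse 3. Over these fits the log2 fold change crossed 0 for Acta1 (-0.32 to 0.36), Actc1 (-0.73 to 0.30), Actn2 (-0.18 to 0.23), Ankrd1 (-1.23 to 0.77), Cryab (-0.055 to 0.24), Ldb3 (-0.28 to 0.13), Myh6 (-0.36 to 0.011), Myl2 (-0.71 to 0.21), Tnni2 (-0.45 to 0.14), Tpm3 (-0.050 to 0.19), Ttn (-0.33 to 0.10), Xirp1 (-0.40 to 0.49) and Xirp2 (-0.17 to 0.055), and the share difference, in percentage points, for Myl2 (-0.358 to 1.16), Myl3 (-2.30 to 1.51), Acta1 (-0.129 to 0.189) and Xirp1 (-4.55 to 6.64). The causes were not tested.

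Replicate numbers mark different animals, and the deviations of same-numbered mice correlated at 0.12, -0.03 and -0.00 across genes, so they were not taken as pairs. With the replicate number as a block, 157 genes passed, 0 of the 44 tested and 2 of the other sarcomere genes. At an unadjusted p under 0.05 there were 11 of the 44, and the share of all genes there was not taken. Genes under 10 normalized counts (Tnnc2, Myoz1, Ankrd2) are beyond the depth of these libraries.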
